A study of Homo sapiens with 6 samples.

Results

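Interferon-stimulated genes are the genes that cells transcribe when interferon binds its receptors, and 44 of them were examined in H2087-LCC cells among the 21293 genes of the table. They were taken from a list of gene symbols. All 44 had a mean over the 6 libraries of 10 or more, the minimum for testing, which 14395 genes reached. H2087-LCC is a dormant metastatic derivative of the stage I human lung adenocarcinoma (LUAD) line H2087, selected in mice as a population and not as a clone. RNA-seq was performed on polyA RNA from these cells in culture, in 3 groups of 2 libraries. The first group was incubated for 3 days with SB505124 (SB), which inhibits the kinase of the TGFβ type I receptor and so blocks the TGFβ the cultures make themselves. The other two received TGFβ for 3 days or for 7 days. SB was used for 3 days only, so the comparison of 7 days with SB also holds time in culture. The study describes the libraries of a group as technical replicates, and the labels name no separate cultures, so p-values measure only the spread between these libraries.

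Type I interferons bind the receptor of IFNAR1 and IFNAR2, and type III interferons that of IFNLR1 and IL10RB. Both activate the kinases JAK1 and TYK2, which phosphorylate STAT proteins, STAT2 among them. These STATs join IRF9 to form ISGF3, a factor that binds the interferon-stimulated response element (ISRE) in the promoters of its target genes. Interferon gamma acts through STAT dimers, which bind a different DNA site. Many cell lines transcribe a part of this program at a low level with no interferon added. The proteins it encodes sense or cut viral RNA, block viral entry or assembly, and modify other proteins with the ubiquitin-like protein ISG15.

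The DNA letters that ISGF3 reads were looked up in the RefSeq promoters, which run from 250 bases before to 50 after each transcription start on GRCh38.p14. An entry was found for 35 of the 44 genes, with 46 starts in all. The ISRE core was searched on both strands as GAAA, any 2 bases and again GAAA. It was in the promoters of 25 of the 35 genes (71.4%), against 3.57% of all 35116 promoters and 4.08% of the 10355 tested genes with an entry. The windows below show genes on which the results turn, on the strand of transcription, with a match in capitals. The first 10 belong to genes that were lower after 3 days of TGFβ.
ISG15 (chr1:1013380-1013409, plus strand): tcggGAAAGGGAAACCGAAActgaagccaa
IFIT1 (chr10:89392510-89392539, plus strand): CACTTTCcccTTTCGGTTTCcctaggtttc
IFIT3 (chr10:89332425-89332454, plus strand): acagattctgTTTCAGTTTCccctcaagag
OAS3 (chr12:112938452-112938481, plus strand): agccgggcggGAAAACGAAAccagaaatcc
IFITM1 (chr11:314024-314053, plus strand): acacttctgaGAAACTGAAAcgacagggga
MX1 (chr21:41420559-41420588, plus strand): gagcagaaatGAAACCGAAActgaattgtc
PARP14 (chr3:122680800-122680829, plus strand): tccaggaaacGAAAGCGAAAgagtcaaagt
DTX3L (chr3:122564322-122564351, plus strand): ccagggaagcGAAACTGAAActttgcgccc
BST2 (chr19:17405735-17405764, minus strand): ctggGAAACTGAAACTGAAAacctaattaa
LGALS3BP (chr17:78979962-78979991, minus strand): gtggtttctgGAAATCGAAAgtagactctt
The next 2 belong to genes that were higher after 3 days of TGFβ, and the last to a gene whose direction depended on the SB library.
IFI44 (chr1:78649761-78649790, plus strand): gcacactgagTTTCAGTTTCctttctctga
SAMD9 (chr7:93118096-93118125, minus strand): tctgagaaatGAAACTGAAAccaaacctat
IFI27 (chr14:94110618-94110647, plus strand): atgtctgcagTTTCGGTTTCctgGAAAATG
In ISG15 and BST2, 2 matches overlapped and share letters, and in IFIT1 and IFI27 the window also holds part of a neighboring match. PARP9 and DTX3L, which lie head to head, share the DTX3L window on opposite strands. A match is a stretch of letters, and binding was not measured.

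The deposited normalized counts are read counts scaled by library size and are not divided by gene length, so each gene is compared only with itself. They summed to between 34306283 and 36340734 per library, and 1 read was worth an estimated 0.896 to 1.10 of them. TGFβ response genes checked the labels. TGFBI, for example, was at 23141 and 21758 in SB and at 142753 to 307204 in the 4 TGFβ libraries. Lung epithelial keratins were abundant in every library. Of 9 epithelial and lineage markers, by the threshold given below, 6 were lower than in SB at both times and KRT7 was higher. NKX2-1, the lung lineage factor, was at 2784 and 2908 in SB and at 712 to 857 with TGFβ. CDH1 was at 371 and 635 in SB and at 9 to 28 with TGFβ. NAPSA was at 99 and 234 in SB and at 5 to 9 with TGFβ. Of 7 leukocyte markers, 6 were at 13 or below in every library, PTPRC among them at 0 to 4, and CD68, which is not specific to leukocytes, was at 4368 to 5113. The plasmacytoid dendritic cell markers CLEC4C and LILRA4 were at 2 or below.

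Most of the called interferon-stimulated genes were lower after 3 days of TGFβ than in SB, and 12 of these 24 were higher again at 7 days than at 3 days, against 15.3% of the 2021 genes of the table that were lower at 3 days. Both comparisons use the 3-day libraries, and with limma without its variance trend 3 of the 44 genes were higher at 7 than at 3 days, UBE2L6 and LGALS3BP of the 12 and STAT2. IFI44, SAMD9, SAMD9L and CMPK2 were higher than in SB at both times. At 3 days, 24 of the 44 genes were lower than in SB and 4 were higher, against 14.0% lower and 14.9% higher among all genes tested. The remaining 16 did not pass the threshold. The median log2 difference was -0.63 over the 44 genes and -0.02 over all genes. At 7 days, 17 were lower than in SB and 7 higher (26.9% and 27.7% of all genes), with a median of -0.31. That median turned to 0.09 against SB library 1 alone, with 13 lower and 13 higher, and was -0.70 against SB library 2 alone, with 27 and 6. Between 7 and 3 days, 4 were lower and 15 higher (16.2% and 17.0% of all genes), with a median of 0.46. Differences are means of log2(normalized count + 1), a scale that understates the change of low genes, and folds are the same differences written as ratios. Adjusted p-values come from limma, by the Benjamini-Hochberg method over the 14395 genes tested, with a threshold of 0.05. A gene is said to pass in a comparison of whole groups, unless a single SB library is named. In bulk RNA, fewer expressing cells and less RNA per cell cannot be told apart.

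**Figure D1:**
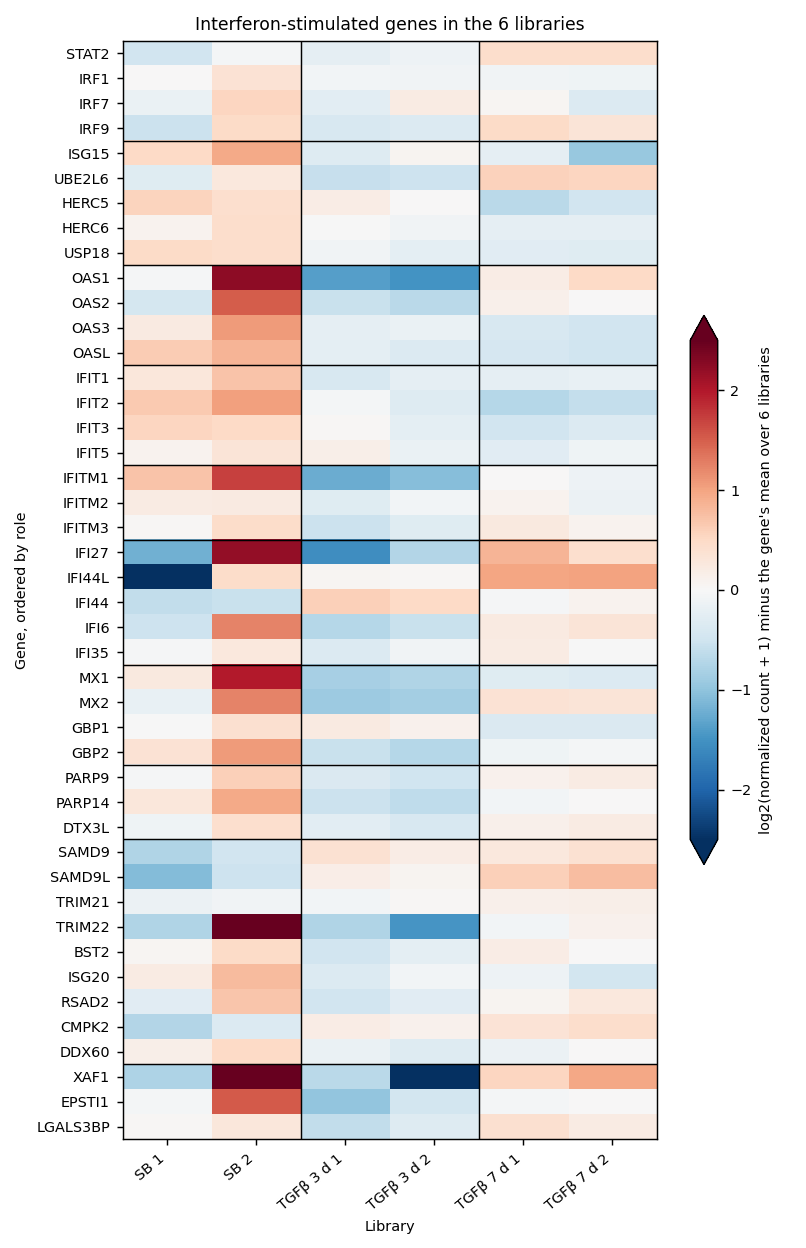
Each row is one of the 44 interferon-stimulated genes and each column one of the 6 libraries; color is log2(normalized count + 1) minus the mean of that gene over the 6 libraries, and lines separate the roles and the groups. SB library 2 is the reddest column, higher than SB library 1 in 41 of 44 genes, while the 4 genes higher at both times in TGFβ (IFI44, SAMD9, SAMD9L and CMPK2) are blue in SB.

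The SB libraries were the pair that differed most in these genes. SB library 2 was higher than SB library 1 in 41 of the 44, against 48.0% of all genes tested, with a median log2 difference of 0.48 against -0.01. The exceptions were HERC5, USP18 and IFIT3. In 11 genes the SB libraries differed over 2-fold, with SB library 2 higher in each (2.42% of all genes), and in 0 the other way (0.827% of all genes). The 11 were IRF9, OAS1, OAS2, IFI27, IFI44L, IFI6, MX1, MX2, TRIM22, XAF1 and EPSTI1, with ratios from 2.03 in IRF9 to 10.8 in IFI27, and 15.8 in TRIM22, which reached the minimum for testing only through SB library 2. The median absolute difference within a pair was 0.48 for SB over the 44 genes and 0.16 over all genes. It was 0.16 and 0.13 at 3 days, and 0.12 over both at 7 days. SB library 2 was also higher in 35 of 40 further interferon-stimulated genes tested, with a median of 0.30. TGFβ response genes differed between the SB libraries in both directions: PMEPA1 was at 320 in SB library 1 and 193 in SB library 2 and SMAD7 at 112 and 79, while SKIL was at 1452 and 1608. Among the epithelial and lineage markers, CDH1 (371 and 635), SOX2 (1552 and 2658) and NAPSA (99 and 234) were higher in SB library 2. The others differed less. The ratio of SB library 2 to SB library 1 ran from 1.04 in NKX2-1 to 1.35 in KRT19, with KRT7, KRT8 and KRT18 within that range. EPCAM was lower in SB library 2 (10180 and 9106). The part of these in the difference of the interferon-stimulated genes was not tested. Values are therefore given per library below, library 1 first, and each comparison with SB was repeated against each SB library alone.

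**Figure D2:**
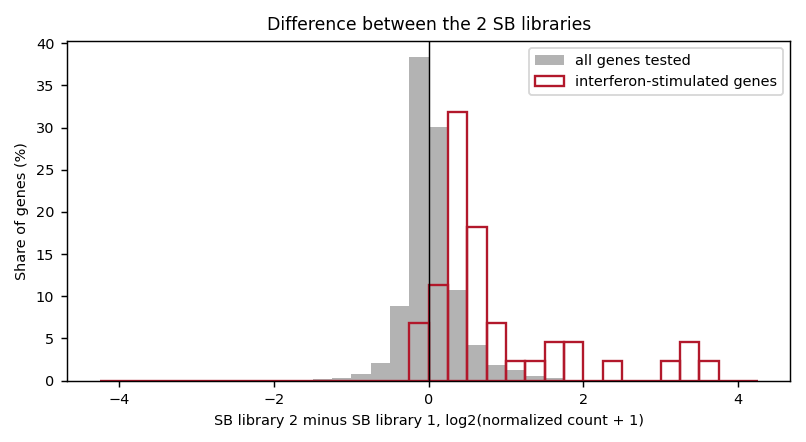
The x axis is SB library 2 minus SB library 1 in log2(normalized count + 1), in bins of 0.25 with values past 4.2 in the end bins, and the y axis is the share of genes in percent. Gray bars are the 14395 genes tested, centered near 0, and red outlines are the 44 interferon-stimulated genes, with a median of 0.48 and a tail to the right.

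Of the 4 signal regulators among the 44 genes, STAT2 and IRF9 rose between 3 and 7 days. STAT2, a subunit of ISGF3, had normalized counts of 1478 and 1996 in SB, 1763 and 1895 at 3 days and 2804 and 2809 at 7 days. Its 3-day libraries lay between the SB libraries and its 7-day libraries above both. STAT2 was 1.63-fold higher at 7 days than in SB (log2 0.71 ± 0.13 SE, adjusted p = 0.000572) and 1.54-fold higher than at 3 days (adjusted p = 0.00362). IRF9, its DNA-binding partner, was at 713 and 1444 in SB, 785 and 821 at 3 days and 1458 and 1308 at 7 days. The SB libraries of IRF9 spanned the 3-day values, and neither comparison with SB passed (adjusted p = 0.312 and 0.13). From 3 to 7 days IRF9 rose 1.72-fold (log2 0.78 ± 0.24, adjusted p = 0.0245). IRF7, the factor that amplifies type I interferon production, was at 119 and 194 in SB, 111 and 154 at 3 days and 138 and 106 at 7 days. Its groups overlapped and it passed in no comparison (adjusted p from 0.299 to 0.77). IRF1, a factor downstream of interferon gamma, ranged from 931 to 1299 and also passed in none, with its 4 TGFβ libraries below both SB libraries.

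Genes of ISG15 conjugation went different ways. ISG15, the ubiquitin-like modifier, was at 395 and 541 in SB, 223 and 292 at 3 days and 239 and 145 at 7 days. Each TGFβ library was below both SB libraries. ISG15 was 1.81-fold lower at 3 days (log2 -0.85 ± 0.24, adjusted p = 0.018) and 2.47-fold lower at 7 days (log2 -1.31 ± 0.24, adjusted p = 0.000617). UBE2L6, the conjugating enzyme of ISG15, was at 404 and 602 in SB, 337 and 347 at 3 days and 750 and 729 at 7 days. It was the one gene of the 44 that was lower than in SB at 3 days (1.44-fold, adjusted p = 0.0338) and higher at 7 days (1.5-fold, adjusted p = 0.0111), with no overlap between the groups. Its rise between 3 and 7 days was 2.16-fold (log2 1.11 ± 0.17, adjusted p = 0.000634). HERC5, the main ligase that attaches ISG15, was at 516 and 472 in SB, 401 and 352 at 3 days and 219 and 252 at 7 days. HERC5 stepped down over the 3 groups with no overlap. At 3 days it was 1.31-fold below SB, short of the threshold (adjusted p = 0.0585), and at 7 days 2.10-fold below (log2 -1.07 ± 0.14, adjusted p = 6.57e-05) and 1.60-fold below 3 days (adjusted p = 0.00425). USP18, the protease that removes ISG15 and restrains the interferon receptor, was at 413 and 406 in SB, 279 and 250 at 3 days and 246 and 243 at 7 days. The SB libraries of USP18 differed by a ratio of 0.983. USP18 was 1.55-fold lower at 3 days (log2 -0.63 ± 0.14, adjusted p = 0.00492) and 1.67-fold lower at 7 days (adjusted p = 0.000753). HERC6, a relative of HERC5, ranged from 487 to 777 and was 1.41-fold lower than in SB at 7 days (adjusted p = 0.00884).

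The oligoadenylate synthetases make the messenger that activates RNase L on viral double-stranded RNA, and OAS1, OAS3 and OAS2 lie side by side on chromosome 12. OAS1 had normalized counts of 60 and 292 in SB, 23 and 21 at 3 days and 70 and 87 at 7 days. Its 3-day libraries were below both SB libraries and its 7-day libraries between them. OAS1 was 5.82-fold lower at 3 days (log2 -2.54 ± 0.52, adjusted p = 0.00331) and rose 3.44-fold from 3 to 7 days (log2 1.78 ± 0.52, adjusted p = 0.0218). Relative to SB library 1 alone the 3-day difference of OAS1 was -1.41, and relative to SB library 2 it was -3.67. OAS3 was at 4044 and 7243 in SB, 2964 and 3124 at 3 days and 2638 and 2494 at 7 days. It was lower in each TGFβ library than in either SB library, 1.78-fold at 3 days (log2 -0.83 ± 0.19, adjusted p = 0.00718) and 2.11-fold at 7 days (adjusted p = 0.000589). OASL, a relative without the synthetase activity, was at 425 and 493 in SB, 231 and 214 at 3 days and 204 and 192 at 7 days. OASL fell 2.05-fold at 3 days (log2 -1.04 ± 0.15, adjusted p = 0.000243) and 2.31-fold at 7 days (log2 -1.21 ± 0.15, adjusted p = 3.32e-05), with the SB libraries within a ratio of 1.16. OAS2 ranged from 137 to 633, the highest value being SB library 2, and passed in no comparison of whole groups.

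The IFIT proteins bind viral RNA that lacks the marks of host mRNA, and their genes form a cluster on chromosome 10. IFIT2 was at 937 and 1216 in SB, 574 and 478 at 3 days and 364 and 396 at 7 days. It stepped down in each group with no overlap, 2.04-fold at 3 days (log2 -1.03 ± 0.15, adjusted p = 0.000286) and 2.81-fold at 7 days (log2 -1.49 ± 0.15, adjusted p = 6.76e-06). IFIT2 was also lower at 7 days than at 3 days (1.38-fold, adjusted p = 0.0326). IFIT3 was at 2430 and 2384 in SB, 1704 and 1414 at 3 days and 1203 and 1326 at 7 days. It fell 1.55-fold (log2 -0.63 ± 0.11, adjusted p = 0.00106) and 1.90-fold (log2 -0.93 ± 0.11, adjusted p = 2.55e-05) below SB, with SB libraries that differed by a ratio of 0.981. IFIT1 was at 715 and 964 in SB, 445 and 503 at 3 days and 502 and 517 at 7 days. IFIT1 was 1.75-fold lower at 3 days (log2 -0.81 ± 0.15, adjusted p = 0.00154) and 1.63-fold lower at 7 days (adjusted p = 0.00173), and the values of the TGFβ groups lay close together. IFIT5 was at 662 and 780 in SB, 683 and 553 at 3 days and 508 and 573 at 7 days. Its 3-day libraries overlapped SB, and only the 7-day difference of IFIT5 passed (1.33-fold lower, adjusted p = 0.0266). Exons of IFIT2 and IFIT3 overlap those of LIPA in the GRCh37 annotation, and the library kit does not mark the strand.

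The IFITM proteins sit in membranes and block viral fusion, and their genes are neighbors on chromosome 11. IFITM1 had normalized counts of 544 and 1085 in SB, 141 and 159 at 3 days and 337 and 306 at 7 days. The 3 groups of IFITM1 did not overlap. It fell 5.10-fold at 3 days (log2 -2.35 ± 0.25, adjusted p = 2.35e-05), rose 2.14-fold from there to 7 days (log2 1.10 ± 0.25, adjusted p = 0.00623) and was still 2.39-fold below SB (adjusted p = 0.00113). IFITM3 was at 3193 and 4300 in SB, 2152 and 2546 at 3 days and 3708 and 3344 at 7 days. At 3 days IFITM3 was 1.58-fold lower (log2 -0.66 ± 0.14, adjusted p = 0.00308), and at 7 days it lay between the SB libraries, 1.5-fold above 3 days (adjusted p = 0.00658). IFITM2 was at 1665 and 1681 in SB, 1159 and 1371 at 3 days and 1537 and 1295 at 7 days. It was lower at 3 days (1.33-fold, adjusted p = 0.0213), and its 7-day difference did not pass (adjusted p = 0.095). IFITM2 and IFITM3 are close copies, so reads that match both were lost to a count of uniquely mapped reads, and their values are uncertain.

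The IFI genes are grouped here by name, and IFI44 and IFI44L among them rose, IFI44L past the threshold only at 7 days. IFI44, a cytoplasmic protein, was at 2178 and 2270 in SB, 5080 and 4743 at 3 days and 3286 and 3560 at 7 days. Both TGFβ groups of IFI44 were above SB, 2.21-fold at 3 days (log2 1.14 ± 0.09, adjusted p = 1.75e-06) and 1.54-fold at 7 days (log2 0.62 ± 0.09, adjusted p = 0.000106). The fall of IFI44 between 3 and 7 days was 1.44-fold (adjusted p = 0.00129). IFI44L, its neighbor on chromosome 1, was at 47 and 383 in SB, 288 and 281 at 3 days and 550 and 555 at 7 days. The 3-day libraries lay between the SB libraries and the 7-day libraries above both. IFI44L was 4.08-fold higher at 7 days (log2 2.03 ± 0.64, adjusted p = 0.0178), and its log2 difference was 3.53 relative to SB library 1 and 0.53 relative to SB library 2. IFI27, a mitochondrial and nuclear membrane protein, was at 40 and 430 in SB, 31 and 55 at 3 days and 168 and 125 at 7 days. At 7 days the log2 difference of IFI27 was 1.83 relative to SB library 1 and -1.56 relative to SB library 2. Against both SB libraries together it did not pass (adjusted p = 0.124 and 0.891). IFI6, which guards mitochondria and the endoplasmic reticulum, ranged from 211 to 822 with the highest value in SB library 2, and IFI35 from 411 to 624, and neither passed between whole groups.

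The MX proteins are dynamin-like GTPases that trap viral nucleocapsids, and the guanylate-binding proteins attack vacuoles of intracellular microbes. MX1 was at 537 and 1799 in SB, 255 and 269 at 3 days and 366 and 359 at 7 days. Each TGFβ library of MX1 was below both SB libraries, 3.74-fold at 3 days (log2 -1.90 ± 0.38, adjusted p = 0.00278) and 2.71-fold at 7 days (adjusted p = 0.00719). Relative to SB library 1 alone its log2 differences were -1.03 and -0.57. MX2 was at 241 and 648 in SB, 144 and 151 at 3 days and 351 and 342 at 7 days. It was 2.67-fold lower at 3 days (log2 -1.42 ± 0.33, adjusted p = 0.00666) and rose 2.34-fold from 3 to 7 days (log2 1.23 ± 0.33, adjusted p = 0.014) to values between the SB libraries. GBP2 was at 835 and 1360 in SB, 441 and 395 at 3 days and 604 and 625 at 7 days. GBP2 fell 2.55-fold at 3 days (log2 -1.35 ± 0.19, adjusted p = 0.000188), was 1.73-fold below SB at 7 days (adjusted p = 0.0034) and rose 1.47-fold between the times (adjusted p = 0.0381). GBP1 was at 609 and 811 in SB, 712 and 659 at 3 days and 479 and 475 at 7 days. GBP1 went the other way in time, with 3-day libraries between those of SB and a fall by 7 days (1.47-fold below SB, adjusted p = 0.00564, and 1.44-fold below 3 days, adjusted p = 0.0158). MX1 shares exon sequence with TMPRSS2 on the opposite strand and GBP2 with GBP7.

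PARP9, PARP14 and DTX3L encode ADP-ribosyltransferases and a ubiquitin ligase that act on interferon-dependent transcription. PARP14 was at 4045 and 6413 in SB, 2296 and 2155 at 3 days and 3155 and 3370 at 7 days. Its groups did not overlap, with a 2.29-fold fall at 3 days (log2 -1.20 ± 0.16, adjusted p = 0.000174), a 1.47-fold rise to 7 days (adjusted p = 0.0223) and a 7-day level still 1.56-fold below SB (adjusted p = 0.00542). PARP9 was at 3027 and 4664 in SB, 2416 and 2190 at 3 days and 3359 and 3561 at 7 days. DTX3L, the partner of PARP9, was at 4133 and 5903 in SB, 3704 and 3372 at 3 days and 4833 and 5098 at 7 days. Both were lower at 3 days (PARP9 1.63-fold, adjusted p = 0.00534, and DTX3L 1.40-fold, adjusted p = 0.0201) and lay between the SB libraries at 7 days. From 3 to 7 days PARP9 rose 1.5-fold (adjusted p = 0.0143) and DTX3L 1.40-fold (adjusted p = 0.0175). The exons of this pair overlap.

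Among other restriction factors, the paralogs SAMD9 and SAMD9L, which block poxvirus translation and lie together on chromosome 7, rose. SAMD9 was at 1223 and 1481 in SB, 2688 and 2348 at 3 days and 2464 and 2698 at 7 days. It was 1.87-fold higher at 3 days (log2 0.90 ± 0.12, adjusted p = 0.000107) and 1.92-fold higher at 7 days (log2 0.94 ± 0.12, adjusted p = 3.39e-05). SAMD9L was at 637 and 945 in SB, 1520 and 1408 at 3 days and 2034 and 2286 at 7 days. SAMD9L climbed over the 3 groups, 1.88-fold at 3 days (log2 0.91 ± 0.16, adjusted p = 0.000953) and 2.78-fold at 7 days (log2 1.47 ± 0.16, adjusted p = 1.09e-05), and the step between the times passed too (1.47-fold, adjusted p = 0.0176). CMPK2, a mitochondrial nucleotide kinase, was at 143 and 186 in SB, 271 and 256 at 3 days and 300 and 322 at 7 days. It was 1.61-fold and 1.90-fold higher than in SB (adjusted p = 0.00846 and 0.000554). RSAD2, which makes a chain-terminating nucleotide and whose exons overlap those of CMPK2 on the other strand, ranged from 46 to 105 and passed in no comparison.

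BST2, the tether that holds budding virions on the cell, ranged from 2464 to 4792 and was 1.53-fold lower than in SB at 3 days (adjusted p = 0.00545). Between 3 and 7 days BST2 rose 1.36-fold (adjusted p = 0.0267). ISG20, an exonuclease of viral RNA, was at 312 and 471 in SB, 212 and 257 at 3 days and 249 and 195 at 7 days. It was lower at both times (1.64-fold, adjusted p = 0.0224, and 1.74-fold, adjusted p = 0.00634), with no TGFβ library reaching SB. DDX60, a helicase that aids RNA sensing, ranged from 430 to 757 and was lower at both times (1.47-fold, adjusted p = 0.0117, and 1.31-fold, adjusted p = 0.0358). TRIM21, an intracellular antibody receptor, ranged only from 450 to 554 and passed in no comparison. TRIM22, a ligase of the same family, was at 8 or below in 5 libraries and at 63 in SB library 2, so its level rests on that library.

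XAF1, a pro-apoptotic protein, was low and uneven, at 13 and 136 in SB, 14 and 3 at 3 days and 34 and 46 at 7 days. Its 3-day libraries overlapped SB library 1, and its 5.65-fold lower level at 3 days passed narrowly (log2 -2.5 ± 0.85, adjusted p = 0.0453), as did its rise from 3 to 7 days (log2 2.39 ± 0.85, adjusted p = 0.049). EPSTI1, a gene also induced in epithelium by stroma, was at 43 and 131 in SB, 22 and 32 at 3 days and 43 and 45 at 7 days. EPSTI1 was 2.77-fold lower at 3 days (log2 -1.47 ± 0.42, adjusted p = 0.0218), and at 7 days its levels met SB library 1. LGALS3BP, a secreted glycoprotein that binds galectins, was at 9122 and 10916 in SB, 5814 and 7152 at 3 days and 11833 and 10358 at 7 days. LGALS3BP dipped and returned, 1.55-fold lower at 3 days (log2 -0.63 ± 0.12, adjusted p = 0.00182) and 1.72-fold higher at 7 days than at 3 days (log2 0.78 ± 0.12, adjusted p = 0.000658), with 7-day and SB values that overlapped.

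**Figure D3:**
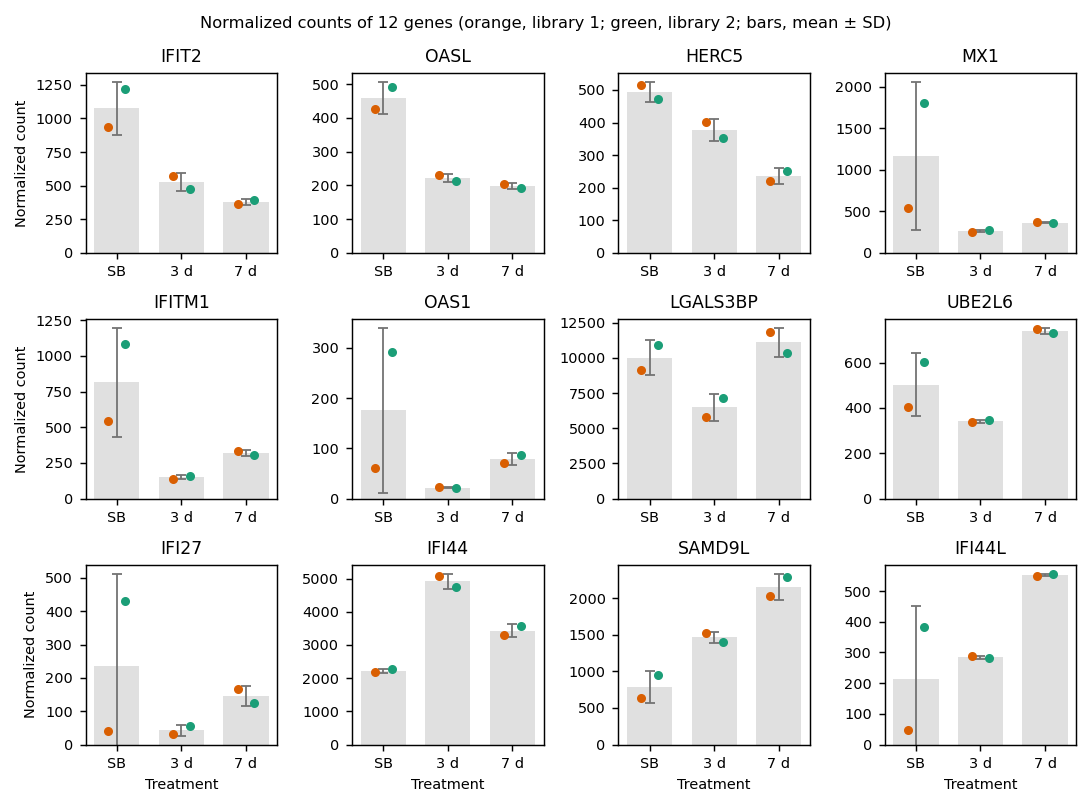
Each panel shows 1 gene, with the treatment on the x axis and the normalized count on the y axis, which starts at 0; points are libraries (orange, library 1; green, library 2) and bars are means with SD, n = 2. IFIT2, OASL and HERC5 step down with points close together. LGALS3BP dips at 3 days and returns, and UBE2L6 dips at 3 days and lies above SB at 7 days. IFI44 and SAMD9L rise, and in MX1, OAS1, IFI27 and IFI44L the SB points lie far apart.

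Since the SB libraries differed, each TGFβ group was set against each of them alone. Against SB library 1, 16 of the 44 genes were lower at 3 days and 5 higher (11.1% and 13.8% of all genes), with a median log2 difference of -0.39. Against SB library 2, 32 were lower and 4 higher (12.8% and 14.2%), with a median of -0.84. All 16 genes lower against SB library 1 were also lower against SB library 2 and in the comparison with both. They were USP18, OAS1, OAS3, OASL, IFIT1, IFIT2, IFIT3, IFITM1, IFITM3, MX1, MX2, GBP2, PARP9, PARP14, BST2 and LGALS3BP. The 8 of the 24 that were not lower against SB library 1 alone were ISG15, UBE2L6, IFITM2, DTX3L, ISG20, DDX60, XAF1 and EPSTI1. IFITM2 also missed the threshold against SB library 2. IFI44, SAMD9, SAMD9L and CMPK2 were higher against each SB library, and IFI44L was higher than SB library 1 and lower than SB library 2. Leaving out 3-day library 1 gave 19 lower and 3 higher, with the calls of ISG15, UBE2L6, IFITM2, ISG20, EPSTI1 and CMPK2 lost. Leaving out 3-day library 2 gave 20 and 4, with those of UBE2L6, DTX3L, DDX60 and XAF1 lost. In a lone SB library the spread is taken from the other groups.

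At 7 days the direction over the 44 genes depended on the SB library. Against SB library 1, 13 were lower and 13 higher (25.9% and 27.5% of all genes), and the median was 0.09. Against SB library 2, 27 were lower and 6 higher (23.6% and 24.7%), and the median was -0.70. The 13 lower against SB library 1 were also lower against SB library 2: ISG15, HERC5, USP18, OAS3, OASL, IFIT1, IFIT2, IFIT3, IFITM1, MX1, GBP1, GBP2 and PARP14. The 6 higher against each were STAT2, IFI44L, IFI44, SAMD9, SAMD9L and CMPK2. OAS2, IFI27, IFI6 and MX2 were higher than SB library 1 and lower than SB library 2, past the threshold both ways. In 16 genes the 7-day mean lay above SB library 1 and below SB library 2, compared with 6 genes at 3 days. The share of all genes that did so was not computed. SB library 2 was the higher in 41 of the 44, so these counts describe single genes and not the list. HERC6, IFIT5, ISG20 and DDX60 missed the threshold against SB library 1 alone, and UBE2L6 against SB library 2 alone. UBE2L6, IFIT5 and DDX60 missed it without 7-day library 1, and IFI44L, ISG20 and DDX60 without 7-day library 2.

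**Figure D4:**
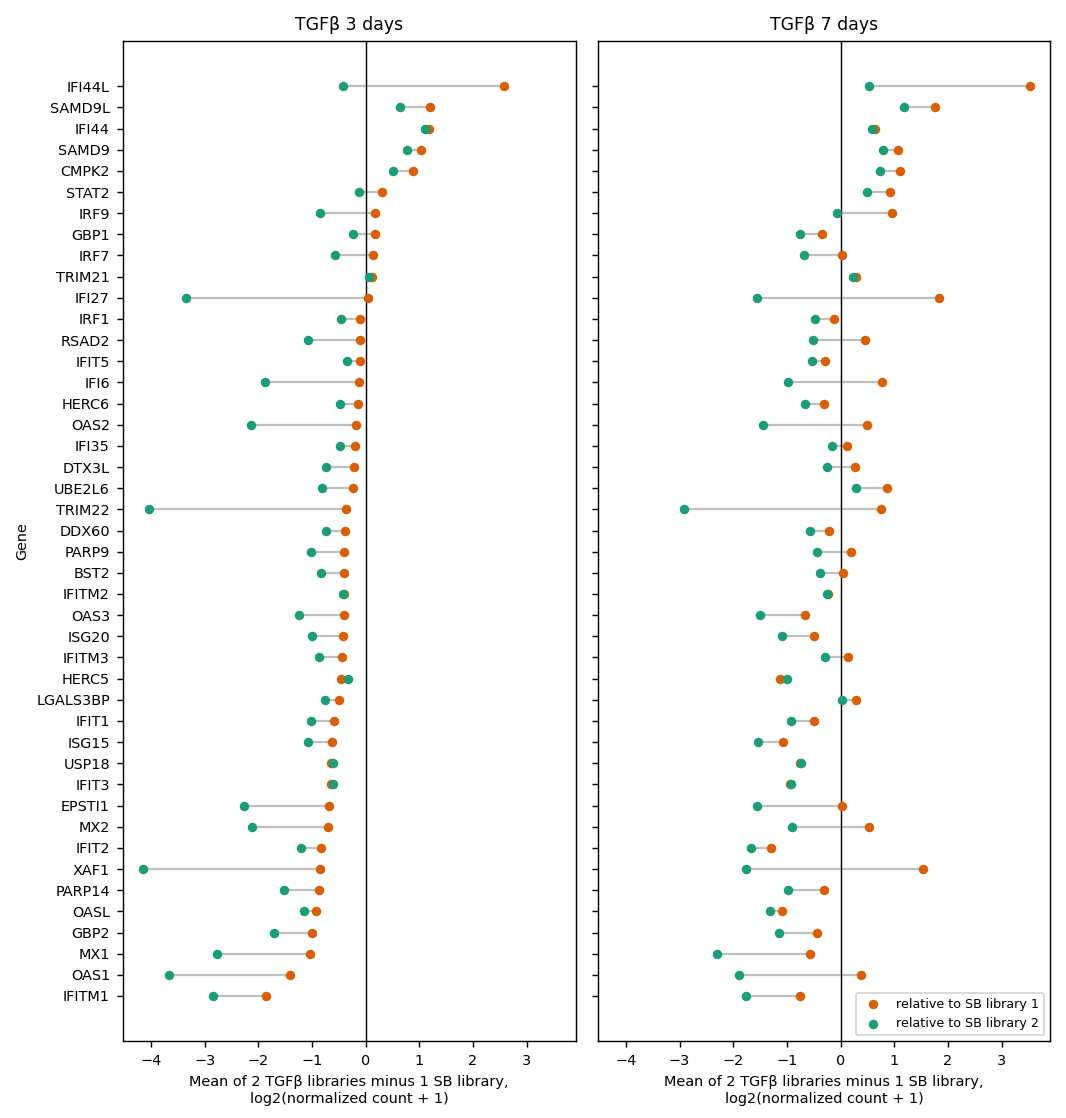
Each row is one of the 44 genes, ordered by the 3-day difference from SB library 1; the x axis is the mean of 2 TGFβ libraries minus 1 SB library in log2(normalized count + 1), in orange for SB library 1 and green for SB library 2, at 3 days (left) and 7 days (right). At 3 days 33 orange and 39 green points lie below 0. At 7 days 19 orange and 35 green points do, and the line of 16 genes crosses 0 with orange on the right. The shares of all genes for these counts were not computed.

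Some genes passed the threshold under each alternative applied to their comparison. The share of all genes that did so was not computed, so these counts describe single genes and not the list. At 3 days 9 of the 24 lower genes passed the threshold under each alternative and with each library left out: USP18, OASL, IFIT1, IFIT2, IFIT3, IFITM1, GBP2, PARP14 and LGALS3BP. The other 15 lost the call when limma estimated one variance prior for all genes in place of a trend on the mean. At 7 days 11 of the 17 passed throughout: ISG15, HERC5, USP18, OAS3, OASL, IFIT1, IFIT2, IFIT3, IFITM1, GBP1 and GBP2. MX1, PARP14, IFIT5 and DDX60, and of the higher genes UBE2L6 and IFI44L, lost the 7-day call without the trend. Of the higher genes, IFI44, SAMD9 and SAMD9L passed throughout at 3 days, and STAT2, IFI44, SAMD9, SAMD9L and CMPK2 at 7 days.

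The comparison of 7 with 3 days does not use the SB libraries for its difference, only for the shared estimate of spread. Of the 24 genes lower at 3 days than in SB, 12 were higher at 7 days than at 3 days: UBE2L6, OAS1, IFITM1, IFITM3, MX2, GBP2, PARP9, PARP14, DTX3L, BST2, XAF1 and LGALS3BP. Another 11 did not pass between the times, and IFIT2 was lower again. These comparisons share the 3-day libraries, so a low 3-day value enters both. Past the threshold at 7 days against 3 days throughout were STAT2, UBE2L6 and LGALS3BP, which were higher, and IFI44, which was lower. Without 7-day library 1 the median log2 difference over the 44 genes was 0.41, and without 7-day library 2 it was 0.45. Without 3-day library 1 it was 0.38, and without 3-day library 2 it was 0.46. Over all genes these medians ran from 0.00554 to 0.0281. Fewer than 15 genes passed as higher in each of these fits. When the SB libraries were left out of the fit, so that their spread did not enter, 5 genes were lower and 20 higher. The shares of all genes called in these fits are not given, so their counts show only how the calls moved.

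Genes with and without the ISRE core were both present among those that fell and those that rose. Among all genes tested, 14.0% were lower and 14.9% higher at 3 days, and 26.9% and 27.7% at 7 days. Of the 25 genes with a match, 15 were lower and 2 higher at 3 days, with a median of -0.63, and 12 were lower and 3 higher at 7 days, with a median of -0.39. Of the 10 with an entry and no match, 3 were lower and 2 higher at 3 days (median -0.33), and 1 was lower and 4 higher at 7 days (median 0.21). IFI44 and SAMD9, which rose, hold the core, as shown in the windows above, and SAMD9L and CMPK2, which rose as well, have no match in this window. The STAT dimer site, searched as TTC, any 3 bases and GAA, a pattern that reads alike on both strands, was in 11 of the 35 genes (31.4%), against 7.66% of all promoters and 8.76% of the tested genes with an entry. Of these 11, 7 were lower and 0 higher at 3 days, and 4 were lower and 0 higher at 7 days. With only 11 genes, these counts say little against the shares of all genes. There were 7 genes with both motifs and 6 with neither, and the motifs shared a base or more in 6 promoters. The shares of all promoters are a description, since the genes belong to one another by function and several are neighbors.

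**Figure D5:**
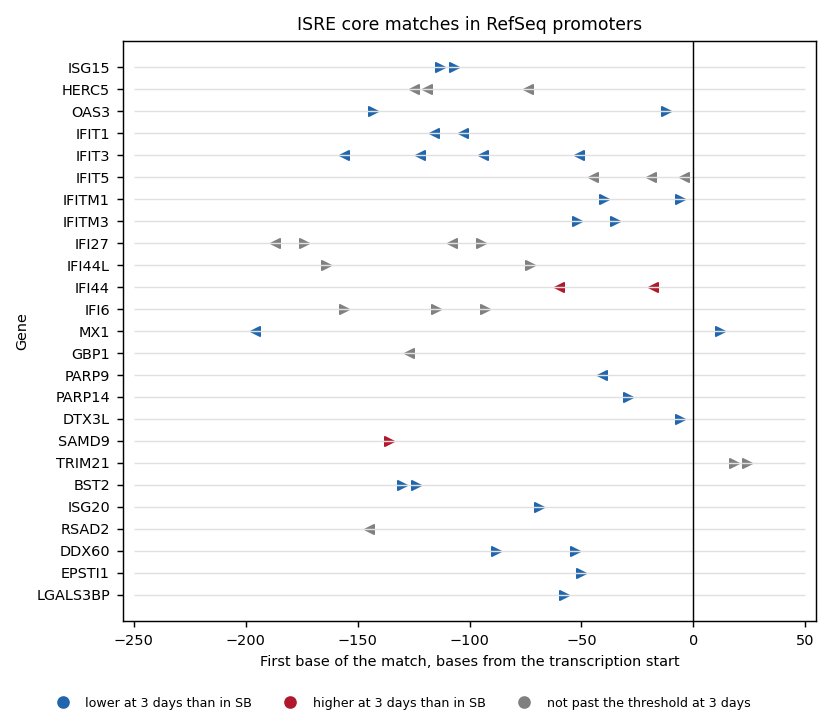
Each row is one of the 25 genes with an ISRE core match in its RefSeq promoters; the x axis is the first base of each match relative to the transcription start (line at 0), and triangles point in the direction of the match. Blue genes were lower than in SB at 3 days, red genes higher and gray genes not past the threshold; matches of several annotated starts of a gene share its row.

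The genes that start and carry the interferon signal were read from further lists, short enough that their counts say little against the shares of all genes (14.0% lower and 14.9% higher at 3 days, 26.9% and 27.7% at 7 days). Of 7 interferon genes, 6 were at 2 or below in every library, IFNB1 and IFNL1 among them. IFNE, an epithelial type I interferon and here singled out after its values were seen, was at 22 and 14 in SB, 10 and 21 at 3 days and 35 and 45 at 7 days. It was higher at 7 days than in SB (log2 1.13 ± 0.40, adjusted p = 0.031), though not against SB library 1 alone, and higher than at 3 days (log2 1.39 ± 0.40, adjusted p = 0.0203). Of 6 receptor genes, 1 was lower and 1 higher at 3 days, and 1 lower and 3 higher at 7 days. IFNGR2, a chain of the interferon gamma receptor, was at 1206 and 1170 in SB, 2088 and 1810 at 3 days and 2427 and 2410 at 7 days. It rose at both times (log2 0.71 ± 0.10, adjusted p = 0.000212, and 1.02 ± 0.10, adjusted p = 5.13e-06). IFNLR1, the specific chain of the interferon lambda receptor, was at 590 and 615 in SB and at 371 to 458 with TGFβ, and fell at both times (log2 -0.55 and -0.54, adjusted p = 0.0149 and 0.00793), at 3 days not against SB library 1 alone. At 7 days IL10RB, its partner chain, rose by 0.42 (adjusted p = 0.0046) and IFNAR2 by 0.40 (adjusted p = 0.0153) on the log2 scale, IFNAR2 not against SB library 2 alone.

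JAK1, the kinase that the receptors of every interferon type use, was at 3889 and 4270 in SB, 6493 and 5965 at 3 days and 7120 and 7309 at 7 days, which was higher at both times (log2 0.61 ± 0.09, adjusted p = 0.000239, and 0.82 ± 0.09, adjusted p = 1.02e-05). Of 6 other IRF genes tested, IRF3 missed the threshold at 3 days (adjusted p = 0.0533), and IRF3 and IRF2BP2 were lower at 7 days (log2 -0.59 and -0.39, adjusted p = 0.0085 and 0.00309). Of 11 inhibitors of the pathway, 1 was lower and 3 higher at 3 days and 4 lower and 3 higher at 7 days. PIAS3, an inhibitor of STAT DNA binding, rose to a log2 difference of 0.86 at 7 days (adjusted p = 6.74e-06), and SOCS3, an inhibitor of cytokine receptors, fell by 0.62 (adjusted p = 0.00797), though not against SB library 1 alone.

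A further 40 tested genes known to respond to interferon were more evenly divided. At 3 days 12 were lower and 7 higher, at 7 days 13 lower and 15 higher, and between the times 6 lower and 12 higher. Of all genes, 14.0% and 14.9%, 26.9% and 27.7%, and 16.2% and 17.0% were called in these comparisons, and the 13 and the 6 lower genes of 40 are near those shares. Their medians were -0.12, -0.04 and 0.19. CD274, which encodes PD-L1, was at 2246 and 1962 in SB, 1444 and 1343 at 3 days and 347 and 394 at 7 days. It stepped down with no overlap, to a log2 difference of -2.5 ± 0.12 at 7 days (adjusted p = 1.04e-08). LAMP3, a lysosomal membrane protein, was at 216 and 872 in SB and at 59 to 97 with TGFβ (log2 -2.71 ± 0.46 at 7 days, adjusted p = 0.000406). SLFN5, a nuclear regulator of interferon targets, was at 2826 and 3497 in SB, 6647 and 6432 at 3 days and 8890 and 9271 at 7 days. It rose at both times, with log2 differences of 1.06 and 1.53 (adjusted p = 1.1e-05 and 2.01e-07). TNFSF10, the death ligand TRAIL, was at 91 and 153 in SB, 131 and 122 at 3 days and 325 and 327 at 7 days, and rose only at 7 days (log2 1.46 ± 0.22, adjusted p = 0.000176).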

How the data were processed

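RNA-seq libraries of H2087-LCC cells (SB for 3 days, TGFβ for 3 or 7 days, 2 libraries each) were analyzed. The authors mapped read pairs to hg19 with STAR, counted uniquely mapped reads per gene with HTSeq 0.6.1p1, normalized them by library size and used DESeq2 for their own tests. The deposited values, recorded under the unit score, are these normalized counts rounded to whole numbers. They are not raw counts, so no count model was used here. The 44 genes and all gene lists were chosen with earlier results of these data known. Genes whose mean reached 10 were fitted as log2(value + 1) with limma 3.58.1 in R 4.3.3 (empirical Bayes with a trend, group as the only term, 3 residual degrees of freedom). An exact two-sided permutation test of 2 against 2 libraries cannot go below p = 0.333 and was not used. Depth was an estimated 32000000 to 40000000 assigned reads per library, and 2 libraries per group limit the precision. Genes were described with every library when they passed in at least 1 comparison, up to 4 per role by the largest log2 difference, or when the SB libraries disagreed in direction at both times. At most 4 genes were named per further list. Exon overlaps come from the GENCODE annotation on GRCh37, and promoter sequences from RefSeq on GRCh38.p14. Alternatives were other pseudocounts, filters and scalings, limma without the trend, only the libraries compared, the replicate number as a block and each library left out. The fit was tested on simulated data with known folds and the same dispersion in every group.

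Replicate numbers were checked for pairing by the correlation of deviations from group means between same-numbered libraries, which was 0.14 for SB and 3 days, -0.10 for SB and 7 days and -0.29 for 3 and 7 days. The numbers were therefore not taken to pair libraries. Some genes of the table are not reported here.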

Additional observations from a re-analysis of the deposited data

Results flagged for a closer look

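Levels differed between 7 and 3 days of TGFβ in 19 of the 44 genes by limma, where 16.2% of all genes were lower and 17.0% higher. SB was used for 3 days only, so TGFβ and time in culture cannot be told apart in this difference. Of the 19 calls, 12 were lost without 7-day library 1 and 12 without 7-day library 2. The log2 differences of the 15 genes higher at 7 days were 0.62 in STAT2, 0.78 in IRF9, 1.11 in UBE2L6, 1.78 in OAS1, 1.10 in IFITM1, 0.59 in IFITM3, 1.23 in MX2, 0.56 in GBP2, 0.59 in PARP9, 0.55 in PARP14, 0.49 in DTX3L, 0.56 in SAMD9L, 0.45 in BST2, 2.39 in XAF1 and 0.78 in LGALS3BP. The 4 lower at 7 days were HERC5 at -0.68, IFIT2 at -0.46, IFI44 at -0.52 and GBP1 at -0.52.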

How the results depend on the processing

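With all libraries kept, 1244 of the single-gene values under the alternatives kept their direction and side of the threshold, 35 came to pass it, 76 no longer passed and 3 changed sign. The last were IFI35 at 7 days (0.0027 with equal upper quartiles) and DTX3L at 7 days (-0.00018 with median-of-ratios size factors and -0.0408 with equal library totals). With no filter on low values and with limma without the trend, 9 and 9 of the 44 genes were lower at 3 days, and 2 and 2 were lower and 3 and 3 higher at 7 than at 3 days. In the further lists these alternatives gave 6 and 8 lower at 3 days, and 10 and 7 higher at 7 than at 3 days. When genes had to reach a mean of 50, the median between the times was 0.38. With equal library totals, the medians relative to SB library 2 were -0.92 at 3 days and -0.77 at 7 days. The cause of these changes was not tested. The replicate block gave 28 lower and 5 higher genes at 3 days, 17 and 8 at 7 days, and 4 and 18 between the times, and it ended no call. Crossing the numbers between 3 and 7 days was an alternative added after the data were seen. It gave 9 lower and 25 higher genes, and 17 and 35 in the further lists. Shares of all genes called are not given for these alternatives, so their counts show only how the calls moved.

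With each library of the groups compared left out in turn, 404 single-gene results were unchanged in direction and call, 23 came to pass the threshold, 65 no longer passed and 36 changed sign. Counts at 7 days against SB ranged from 13 to 27 lower and from 6 to 13 higher, and the median from -0.70 to 0.0851. Between the times they ranged from 2 to 5 lower and from 5 to 12 higher, with medians from 0.38 to 0.46, and leaving out an SB library, which enters there only through the shared spread, gave 5 lower and 21 or 20 higher. In the further lists, 8 to 22 genes were lower at 3 days and 8 to 13 higher between the times. At 3 days against SB, the log2 difference changed sign in STAT2 (-0.13 to 0.31), IRF7 (-0.57 to 0.14), IRF9 (-0.85 to 0.17), IFI27 (-3.35 to 0.0461), IFI44L (-0.43 to 2.57) and GBP1 (-0.24 to 0.17). At 7 days against SB it did so in IRF7 (-0.68 to 0.0233), IRF9 (-0.0643 to 0.95), OAS1 (-1.89 to 0.37), OAS2 (-1.45 to 0.50), IFITM3 (-0.29 to 0.14), IFI27 (-1.56 to 1.83), IFI6 (-0.97 to 0.78), IFI35 (-0.16 to 0.12), MX2 (-0.90 to 0.52), PARP9 (-0.43 to 0.19), DTX3L (-0.25 to 0.26), TRIM22 (-2.92 to 0.76), BST2 (-0.39 to 0.0518), RSAD2 (-0.52 to 0.45), XAF1 (-1.76 to 1.53) and EPSTI1 (-1.55 to 0.0321). Between the times it did so in IRF7 (-0.35 to 0.12), SAMD9 (-0.0601 to 0.14) and ISG20 (-0.26 to 0.0928). With 1 library left in a group, its spread is assumed to be that of the other groups. Of these fits, shares of all genes are given only for those against a single SB library. For TRIM22, XAF1, EPSTI1 and RSAD2, low counts limit the precision.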
